A study of Homo sapiens with 60 samples.

Results

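HT29 cells, a human colorectal adenocarcinoma line, were treated for 24 h with a water extract of Palmul-tang or of Sibjeondaebo-tang at 500 µg/mL, the highest dose, and set against vehicle cells given 0.1% DMSO. Both are multi-herb decoctions of Korean medicine, and the recipe of Sibjeondaebo-tang adds Astragalus root and cinnamon bark to that of Palmul-tang. The comparison was chosen by extract and dose from the sample labels. It holds 6 decoction libraries (3 of each formula, pooled) and 3 vehicle libraries, 9 of the 60 RNA-seq libraries of the series. The other libraries used here were the same decoctions at 20 and 100 µg/mL (6 libraries each) and 36 libraries of 70% ethanol extracts. Of those 36, 12 were at the lowest dose, which was 20 µg/mL for Poria, Atractylodes and Ginseng and 14 µg/mL for Glycyrrhiza. The rest were at 100 and 500 µg/mL, or at 70 and 350 µg/mL for Glycyrrhiza. Each extract was made from dried plant material by hot water reflux or by ethanol with ultrasound, filtered and freeze-dried, per the labels' protocols. The labels do not give the DMSO content of the extract wells, and the series text gives the vehicle as 2% DMSO. All decoction libraries carry set number 8, the ethanol extracts sets 9 and 10, and vehicle no set number, so set and treatment cannot be told apart against vehicle. All the cells shared 1 line and 1 exposure time. The labels do not say that replicates were separate cultures, so p-values measure only the spread between libraries.

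Colonic epithelial cells secrete chemokines of the CXC and CC families, which attract neutrophils and lymphocytes, and they release antimicrobial and complement proteins at the gut surface. Many of these genes are targets of NF-kB, a family of dimeric transcription factors held in the cytosol by inhibitor proteins until a receptor signal removes them. A separate programme runs through NRF2, a transcription factor that binds the antioxidant response element and turns on genes for glutathione synthesis, NADPH supply and the reduction of reactive carbonyls.

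The libraries held 19.4 to 27.8 M counts in the decoction group (23.7 M ± 3.11, SD, n = 6) and 19.8 to 20.9 M in vehicle (20.3 M ± 0.548, SD, n = 3), with overlapping ranges (exact two-sided permutation test, p = 0.19). Mitochondrially encoded genes took 6.98% ± 0.241 of the counts in the decoction libraries (SD, n = 6) and 10.2% ± 1.36 in vehicle (SD, n = 3). The 3 vehicle libraries were at 8.91%, 10.2% and 11.6%, all above the 6 decoction libraries, which lay between 6.58% and 7.19% (exact two-sided permutation test, p = 0.0238, the smallest that 6 against 3 libraries allow). The mean share was 7.25% in the decoction libraries at 20 µg/mL, 7.17% at 100 µg/mL and 7.75% in the ethanol extracts at their lowest dose. The vehicle mean was above these means. The decoction libraries at 20 and 100 µg/mL reached at most 7.88% and 7.83%, below every vehicle library. Ethanol extract libraries overlapped vehicle, reaching 9.71% at their lowest dose and 10.05% over all doses. The 13 markers of colon epithelium were all detected, with a summed level of 12520 to 13150 CPM (counts per M counts) in the decoction libraries and 12340 to 12720 CPM in vehicle. Of 9 fibroblast markers, COL1A2 and PDGFRA were at 0 in all 9 libraries, and the list summed to 1.46 to 2.87 CPM with the decoctions and 2.5 to 2.96 CPM in vehicle. Of 11 immune cell markers, CD3E, CD3D, MS4A1, FCGR3A and NKG7 were at 0, and the sum of 1364 to 1598 CPM with the decoctions, against 1458 to 1498 CPM in vehicle, was almost all LYZ, a lysozyme gene that colon cancer cells also express. CDH5 and KDR of 7 endothelial markers and STMN2 and SNAP25 of 8 neural or muscle markers were at 0. The endothelial list summed to 43.2 to 47.1 CPM with the decoctions and 48.7 to 53.4 CPM in vehicle. Almost all of that sum was 1 gene, ESAM, with means of 42.8 and 48.7 CPM. The neural or muscle list summed to 10.7 to 12.2 CPM and 10.7 to 11.9 CPM in the same order. In bulk RNA, fewer cells of a type and less RNA per cell cannot be told apart.

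**Figure D1:**
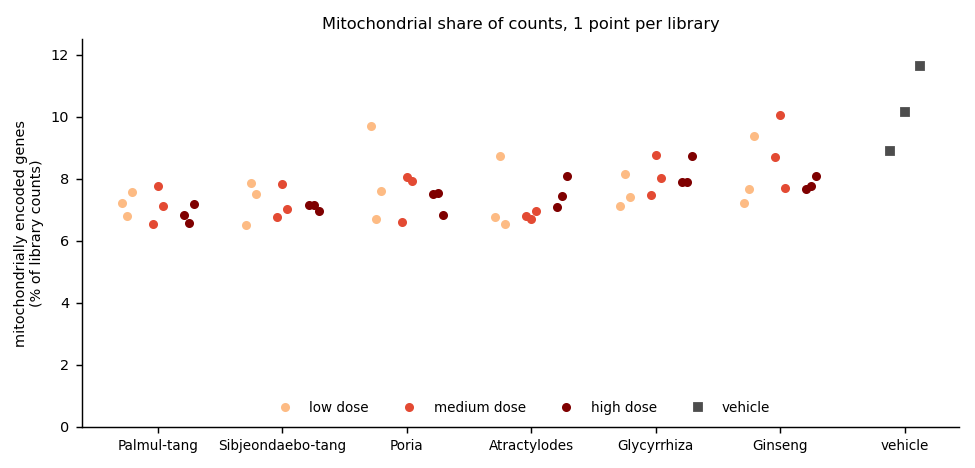
Share of counts in mitochondrially encoded genes (y axis, %) in each library, by extract (x axis) and dose (colour), with vehicle as grey squares at the right. The 3 vehicle libraries sit between 8.91% and 11.6%, above the 6 libraries of the decoctions at 500 µg/mL, which sit between 6.58% and 7.19%.

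With the decoctions at 500 µg/mL a compact group of chemokine and mucosal defence genes stood several fold above vehicle, among many small shifts in other genes. CXCL1 and CCL20 had the largest rises among protein-coding genes of at least 5 CPM, 19.2-fold and 21.8-fold. Antioxidant enzymes of the NRF2 programme rose by smaller amounts, most mitochondrially encoded genes and 11 of 25 mucin and goblet cell genes fell, and 25 of 38 DNA replication genes were slightly higher. Across all genes, edgeR's quasi-likelihood test with Benjamini-Hochberg adjustment called 4938 of 16445 tested genes (30.0%) at an adjusted p below 0.05, 2562 higher (15.6%) and 2376 lower (14.4%) than vehicle. The median absolute log2 fold change of the called genes was 0.23. At least a 2-fold change was reached by 83 of the higher and 59 of the lower genes, and at least a 4-fold change by 36 and 18. The 6 decoction and 3 vehicle libraries did not overlap in 4066 genes (24.7%). With the mitochondrial share of each library as a covariate the test called 1949 genes, and without vehicle replicate 3 it called 3121.

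The neutrophil-attracting chemokines led the rise. CXCL1, a ligand of the receptor CXCR2, lies on chromosome 4 at 73869393 to 73871242 (GRCh38, plus strand). It had a lowest, median and highest level of 25.5, 32.7 and 34.1 CPM in the 6 decoction libraries, against 1.95, 1.68 and 1.22 CPM in the 3 vehicle libraries. No decoction library came near a vehicle library, and the log2 fold change was 4.26 ± 0.132 (SE; edgeR's quasi-likelihood test, Benjamini-Hochberg adjusted p = 1.4e-32). CXCL8 (interleukin 8), another neutrophil attractant, reached 28.6, 32.6 and 33.96 CPM (lowest, median, highest) with the decoctions and 6.20, 6.37 and 5.18 CPM in vehicle. The groups were far apart, at a log2 fold change of 2.44 ± 0.078 (adjusted p = 3.8e-32). CXCL3 was at 3.88, 5.53 and 6.02 CPM with the decoctions and 0.732, 1.12 and 1.11 CPM in vehicle, 2.41 ± 0.195 higher on the log2 scale (adjusted p = 4.1e-14). CXCL6 was at 3.82, 4.14 and 4.63 CPM with the decoctions, against 0.0488, 0.356 and 0.264 CPM in vehicle. It was close to the counting floor in vehicle, and its log2 fold change was 4.21 ± 0.293 (adjusted p = 1.5e-16). CXCL2 was at 2.07, 2.25 and 3.27 CPM with the decoctions and 0.342, 0.306 and 0.582 CPM in vehicle (log2 fold change 2.57 ± 0.256, adjusted p = 3.3e-11). CXCL5 had 129 counts over the 6 decoction libraries and 0 counts in vehicle. Taken against a floor of 3 counts over the vehicle group, it was at least 17.7-fold higher with the decoctions. These 6 chemokine genes lie near each other on chromosome 4, and none of their decoction libraries overlapped a vehicle library.

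CCL20, the ligand of CCR6 on dendritic cells and T helper 17 cells, rose about as far as CXCL1, with fewer counts behind its vehicle level. Its GENCODE gene lies on chromosome 2 at 227805739 to 227817564 (GRCh38, plus strand). Its lowest, median and highest levels were 4.78, 6.19 and 7.07 CPM in the decoction libraries, against 0.244, 0.458 and 0.106 CPM in vehicle, where it had 16 counts in all. The log2 fold change was 4.44 ± 0.295 (adjusted p = 3.4e-17), and the groups were separated by a wide gap. Across the alternatives it was between 4.08 and 5.04, and that of CXCL1 between 4.10 and 4.43. IL17C, an epithelial cytokine of the interleukin 17 family, had a lowest, median and highest level of 0.748, 1.11 and 1.23 CPM with the decoctions. In vehicle 1 library was at 0.146 CPM and the other two were at 0. It had 146 counts over the decoction libraries and 3 over vehicle, a ratio of pooled CPM of 20.0 (95% exact counting interval 6.72 to 98.2). Of the 29 chemokines and cytokines listed, 19 passed the filter on low counts, and 11 of these rose and 1 fell. Their median log2 fold change was 1.28, also with CXCL5 set at its bound, beside a median of -0.01 over all tested genes. CXCL5 and IL17C were at most 0.051 and 0.21 CPM in the vehicle and ethanol extract libraries, and passed the filter only through decoction libraries. Genes kept that way could hardly come out other than higher, and both are among the 11. Of all tested genes 15.6% rose and 14.4% fell. IL32, IL23A and CSF1, the growth factor of macrophages, also rose, by log2 fold changes of 1.28, 2.39 and 0.99 (adjusted p = 0.00021, 2.9e-05 and 0.00043). All were low in vehicle, IL32 at 0.317 to 0.662 CPM and CSF1 at 0.537 to 0.97 CPM. IL23A was close to the counting floor there, at 0.102 to 0.146 CPM. IL18 was the 1 member that fell, by 0.33 on the log2 scale (adjusted p = 0.023), with overlapping groups. It lost its call in 7 alternatives, among them the 9 libraries alone (adjusted p = 0.062). Others were without Palmul-tang replicate 3, without vehicle replicate 2 and without vehicle replicate 3 (adjusted p of 0.064, 0.13 and 0.068). The interferon-driven chemokines CXCL10 and CXCL11 were not called, at log2 fold changes of -0.07 and 0.24, nor were CXCL16, CX3CL1, CCL15, CCL28 and LIF, between -0.04 and 0.10.

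**Figure D2:**
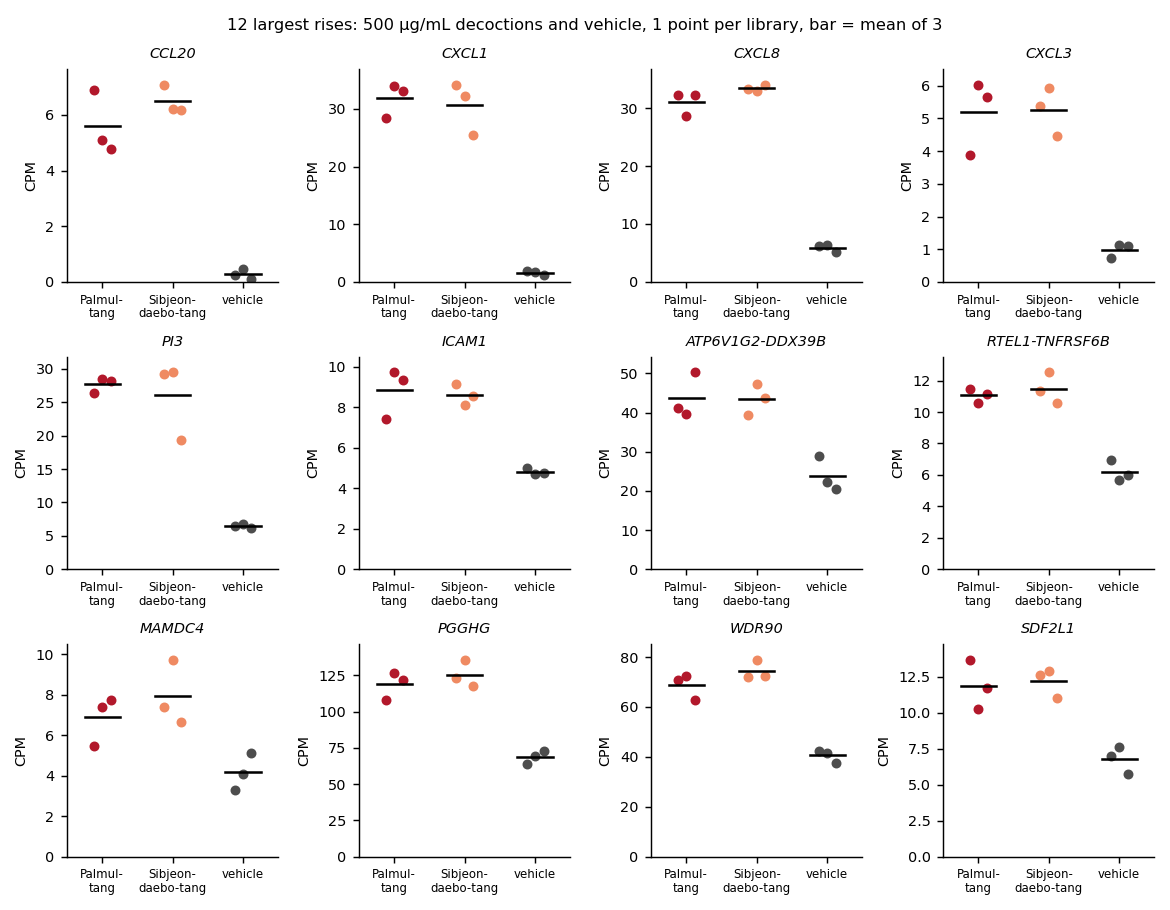
Level in CPM (y axis, from 0) of 12 genes in each library of Palmul-tang and Sibjeondaebo-tang at 500 µg/mL and of vehicle (x axis), 1 point per library, with a bar at the mean of 3. These had the largest rises among called protein-coding genes of at least 5 CPM without overlap of the groups. CXCL1 sits between 25.5 and 34.1 CPM in the 6 decoction libraries and between 1.22 and 1.95 CPM in vehicle. That no decoction point reaches down to a vehicle point follows from the choice of genes.

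The 250 bases before the start of 4 of these chemokine genes are shown. They are the chemokines among the 12 largest rises of at least 5 CPM, and their promoters were searched for an NF-kB-type motif. The motif was GGNNTTTCC, searched on both strands (GGAAANNCC on the other), and it did not overlap the antioxidant motif given further on in any window printed. Sequences are from RefSeq on GRCh38.p14, given 5′ to 3′ on the strand of the gene, with matches in capitals. The window of CXCL1 is chr4:73869143-73869392 on the plus strand, that of CXCL3 chr4:74038690-74038939 on the minus strand, that of CXCL8 chr4:73740319-73740568 on the plus strand and that of CCL20 chr2:227813592-227813841 on the plus strand. The starts, here and for GCLM further on, are those of RefSeq, and except for CXCL1 they differ from the ends of the GENCODE genes.
CXCL1: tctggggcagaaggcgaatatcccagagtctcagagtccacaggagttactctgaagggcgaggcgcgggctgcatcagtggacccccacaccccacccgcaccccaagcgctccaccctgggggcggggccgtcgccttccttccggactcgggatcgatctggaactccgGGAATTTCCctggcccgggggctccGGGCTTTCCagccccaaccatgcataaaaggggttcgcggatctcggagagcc
CXCL3: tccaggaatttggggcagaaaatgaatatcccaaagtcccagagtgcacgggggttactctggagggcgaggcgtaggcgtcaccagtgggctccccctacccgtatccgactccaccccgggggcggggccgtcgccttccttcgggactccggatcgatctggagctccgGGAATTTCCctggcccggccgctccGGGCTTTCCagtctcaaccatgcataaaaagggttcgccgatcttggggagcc
CXCL8: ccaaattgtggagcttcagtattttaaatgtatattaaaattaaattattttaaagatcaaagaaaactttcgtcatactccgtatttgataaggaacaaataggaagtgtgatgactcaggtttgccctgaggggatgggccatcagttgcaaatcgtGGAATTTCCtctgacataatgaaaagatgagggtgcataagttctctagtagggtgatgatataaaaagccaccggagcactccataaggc
CCL20: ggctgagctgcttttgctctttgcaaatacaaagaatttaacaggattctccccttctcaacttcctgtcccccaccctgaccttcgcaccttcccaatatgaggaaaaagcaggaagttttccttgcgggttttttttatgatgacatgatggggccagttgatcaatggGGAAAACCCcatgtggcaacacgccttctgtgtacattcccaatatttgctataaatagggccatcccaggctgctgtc
CXCL1 and CXCL3 each held GGAATTTCC at 78 bases and GGGCTTTCC at 53 bases before the start, so the same letters stood at the same distances in both. CXCL8 held GGAATTTCC at 91 bases, and CCL20 held GGAAAACCC, a match on the other strand, at 79 bases. ICAM1 and WDR90, also among the 12 largest rises, were searched but are not printed. ICAM1 held GGAAATTCC, a match on the other strand, at 186 bases, and WDR90 held 0 matches. Across 27305 RefSeq promoters of the same length, 5.48% held the motif. It was in 12 of the 21 chemokine and cytokine genes with a promoter in the table, among them CXCL2, CXCL5, CXCL6, CXCL10 and CXCL11, and in 12 of 26 genes of the NF-kB list. None of 15 promoters of the defence protein list held it, which says only that these letters are not in those windows.

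Several proteins of epithelial defence also rose, among them components of the complement system and the transporter of secreted antibodies. C3, the central protein of complement, was at 1.84, 2.44 and 2.89 CPM (lowest, median, highest) with the decoctions, against 0.146, 0.204 and 0.0529 CPM in vehicle, 4.10 ± 0.366 higher on the log2 scale (adjusted p = 1.1e-12). CFB, complement factor B of the alternative pathway, was at 3.52, 3.89 and 4.74 CPM with the decoctions and 1.66, 1.48 and 1.43 CPM in vehicle (log2 fold change 1.41 ± 0.153, adjusted p = 3.2e-10). PIGR, the receptor that carries IgA across the epithelium, was at 3.23, 3.92 and 4.5 CPM with the decoctions, against 0.537, 0.306 and 0.423 CPM in vehicle. All 3 genes were clear of vehicle in every decoction library, and the log2 fold change of PIGR was 3.17 ± 0.199 (adjusted p = 2.8e-18). PI3 (elafin), an inhibitor of neutrophil elastase on chromosome 20 at 45174876 to 45176544 (GRCh38, plus strand), was at 19.4, 28.4 and 29.5 CPM with the decoctions. In vehicle it was at 6.54, 6.82 and 6.14 CPM, and its log2 fold change was 2.04 ± 0.127 (adjusted p = 1.2e-16). SAA1, an acute-phase apolipoprotein, had 46 counts over the decoction libraries and 0 in vehicle, at least 6.31-fold higher against the floor of 3 counts over the group.

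Of the 24 defence proteins listed, 16 were tested, 8 rose and 4 fell, beside 15.6% and 14.4% of all tested genes. C3 and SAA1, both among the 8, were at most 0.204 and 0.0395 CPM in the vehicle and ethanol extract libraries. They passed the filter only through decoction libraries, so they could hardly come out other than higher. The median log2 fold change of the list was 0.36, also with SAA1 set at its bound. DUOX2, an oxidase that makes hydrogen peroxide at the apical surface, and DMBT1, a mucosal scavenger receptor, rose by log2 fold changes of 2.15 and 1.33 (adjusted p = 0.0028 and 0.00016). DUOX2 was close to the counting floor in vehicle, at 0.0529 to 0.102 CPM. Neither gene was called with the mitochondrial share as a covariate (adjusted p = 0.22 and 0.066). S100P, a calcium-binding protein, had a log2 fold change of 0.30 (adjusted p = 0.02) with overlapping groups, and an adjusted p of 0.57 with the same covariate. S100P lost its call in 7 alternatives, among them the 9 libraries alone (adjusted p = 0.19). The members that fell were REG4, a secreted lectin, CEACAM6, SLPI and PLA2G2A. REG4 was at 20.98, 24.6 and 26.8 CPM with the decoctions and 33.5, 32.9 and 39.5 CPM in vehicle, a fall of all 6 decoction libraries below vehicle (log2 fold change -0.52 ± 0.063, adjusted p = 3.6e-09). SLPI, a protease inhibitor like PI3, had a log2 fold change of -0.46 (adjusted p = 0.048). It lost its call in 11 alternatives, among them without vehicle replicate 3 (adjusted p = 0.42) and the 9 libraries alone (adjusted p = 0.092). PLA2G2A, an antibacterial phospholipase, had a log2 fold change of -1.13 (adjusted p = 0.0033) that also lost its call without vehicle replicate 3 (adjusted p = 0.076). With the mitochondrial share as a covariate REG4 was still called (adjusted p = 0.0011), and CEACAM6, SLPI and PLA2G2A were not (adjusted p = 0.32, 0.47 and 0.22). The antimicrobial genes LCN2 and LYZ were not called, at 0.12 and 0.04.

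The subunits and feedback genes of NF-kB were counted as a list of their own. Of 29 tested members, 13 rose and 1 fell, beside 15.6% and 14.4% of all tested genes, with a median log2 fold change of 0.12. The largest change was in ICAM1, the adhesion protein that holds neutrophils on the cell surface, at 7.40, 8.85 and 9.73 CPM (lowest, median, highest) with the decoctions and 4.98, 4.69 and 4.76 CPM in vehicle. The groups did not overlap, and the log2 fold change was 0.86 ± 0.099 (adjusted p = 1.4e-09). SOD2, the manganese superoxide dismutase, was at 92.1, 97.2 and 102.6 CPM with the decoctions and 78.2, 73.6 and 67.2 CPM in vehicle, a rise of 0.41 ± 0.047 on the log2 scale (adjusted p = 9.1e-10). The ubiquitin ligase BIRC3, the kinase IKBKE, the adaptor TRAF2 and TNFAIP2 rose by log2 fold changes of 0.51, 0.47, 0.47 and 0.40 (adjusted p = 2.1e-05, 6.3e-06, 3.6e-09 and 8.9e-13). Among the DNA-binding subunits RELB rose by 0.36, NFKB2 by 0.29 and NFKB1 by 0.11 (adjusted p = 0.0014, 0.00019 and 0.014). RELA fell, with a log2 fold change of -0.29 (adjusted p = 5e-07). The inhibitor NFKBIA was not called, at 0.04, nor was the deubiquitinase TNFAIP3, at 0.35 (adjusted p = 0.1). With the mitochondrial share as a covariate the list had 7 members higher and 1 lower, and BIRC3, RELB, NFKB1, ZC3H12A, TNIP1, TRAF3 and RIPK4 were not called (adjusted p of 0.058 to 0.49). NFKB1 and TRAF3 were not called without vehicle replicate 3 (adjusted p = 0.1 and 0.36).

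The vehicle libraries were not the only ones below the decoctions for these genes. In 18 genes (0.109% of those tested) all 18 decoction libraries, at 20, 100 and 500 µg/mL, lay above all 39 other libraries, vehicle and ethanol extracts together, and in 0 genes below them. The 18 were CXCL1, CXCL2, CXCL3, CXCL5, CXCL6, CXCL8, CCL20, IL17C, PI3, C3, CFB, PIGR, SAA1, SOD2, ZC3H12A, IL4I1, SLFN5 and MIR3142HG, the last 3 outside the lists used here and named after their values were seen. CXCL1 was between 19.8 and 34.1 CPM in the 18 decoction libraries, and the highest of the other 39 libraries had 2.57 CPM. CCL20 was between 2.81 and 7.07 CPM in the decoction libraries and at most 0.458 CPM elsewhere. C3 was between 1.55 and 2.89 CPM, against at most 0.204 CPM elsewhere, so the gap was again wide. For SOD2 it was narrow, with 85.6 to 102.6 CPM in the decoction libraries and at most 83.2 CPM elsewhere. ZC3H12A, an RNase that degrades cytokine mRNAs, was between 23.1 and 29.5 CPM and elsewhere at most 22.9 CPM.

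Against the 12 libraries of ethanol extracts at their lowest dose, the decoctions at 500 µg/mL gave calls in 1710 genes (10.4%), 923 higher (5.61%) and 787 lower (4.79%). This comparison shares the 6 decoction libraries with the one against vehicle, and it too crosses set numbers. The chemokine and cytokine list had 11 members higher and 0 lower of 19, and the defence list 8 higher and 1 lower of 16. The NF-kB list had 13 higher and 0 lower of 29. The limit that the filter sets for CXCL5, IL17C, C3 and SAA1 holds here too. CXCL1 had a log2 fold change of 4.08 against the ethanol extracts and 4.26 against vehicle. For CCL20 the values were 4.72 and 4.44, for CXCL8 2.32 and 2.44, and for C3 5.04 and 4.10. For ICAM1 they were 0.87 and 0.86.

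**Figure D3:**
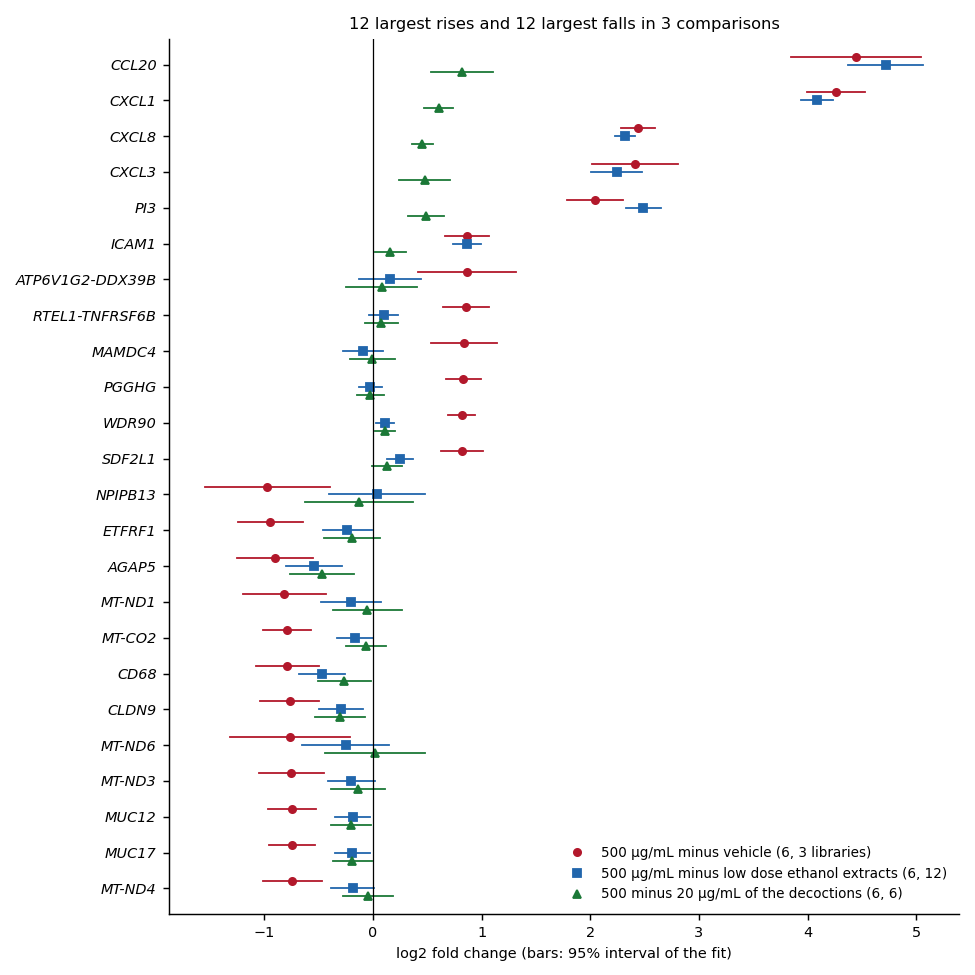
Log2 fold change (x axis) with its 95% interval of the 12 largest rises and the 12 largest falls of the decoctions at 500 µg/mL against vehicle (rows), in the comparison with vehicle (red), with low dose ethanol extracts (blue) and with the decoctions at 20 µg/mL (green). The genes were called, protein-coding, of at least 5 CPM and without overlap against vehicle, so larger changes outside this rule are left out. CCL20, CXCL1, CXCL8, CXCL3, PI3 and ICAM1 have red and blue points close together, while PGGHG, MUC17 and the mitochondrial genes have blue and green points near 0.

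Within set 8, the dose series gave a comparison without vehicle. Between 500 and 20 µg/mL, 180 genes were called (1.09%), 90 higher and 90 lower (0.547% each), and between 100 and 20 µg/mL 7 genes (0.0426%), 6 higher (0.0365%) and 1 lower (0.00608%). Of the 19 chemokine and cytokine genes, 7 were higher at 500 than at 20 µg/mL and 0 lower, with a median log2 fold change of 0.41, and 4 were higher at 100 than at 20 µg/mL. CXCL1 was at 19.8 to 21.8 CPM at 20 µg/mL, 25.3 to 33.01 CPM at 100 µg/mL and 25.5 to 34.1 CPM at 500 µg/mL, a log2 fold change of 0.60 between 500 and 20 µg/mL (adjusted p = 3.9e-09). CCL20 was at 2.81 to 4.08 CPM at 20 µg/mL, 4.54 to 6.23 CPM at 100 µg/mL and 4.78 to 7.07 CPM at 500 µg/mL (log2 fold change 0.82, adjusted p = 0.00024). CXCL8 was at 22.4 to 24.2 CPM, 27.1 to 32.3 CPM and 28.6 to 33.96 CPM in the same order of doses (log2 fold change 0.45, adjusted p = 3.1e-09). For all 3 genes the libraries at 500 and 20 µg/mL did not overlap, those at 100 and 500 µg/mL did, and the level at 20 µg/mL was already most of the way above vehicle. CXCL6, CXCL5, CXCL2 and CXCL3 were higher at 500 than at 20 µg/mL by log2 fold changes of 0.90, 1.36, 0.63 and 0.47 (adjusted p = 4.7e-05, 0.011, 0.018 and 0.023). The calls of CXCL5, CXCL2 and CXCL3 each depended on single libraries, and CXCL3 had an adjusted p of 0.11 without Palmul-tang replicate 2 at 500 µg/mL. PI3 rose by 0.49 (adjusted p = 0.00026) with 1 decoction library at 500 µg/mL inside the range at 20 µg/mL. ICAM1, C3 and PIGR were not called by dose, at 0.16, 0.46 and -0.13, and the NF-kB list had 0 of 29 members called by edgeR or DESeq2, with 9 at an unadjusted p below 0.05.

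**Figure D4:**
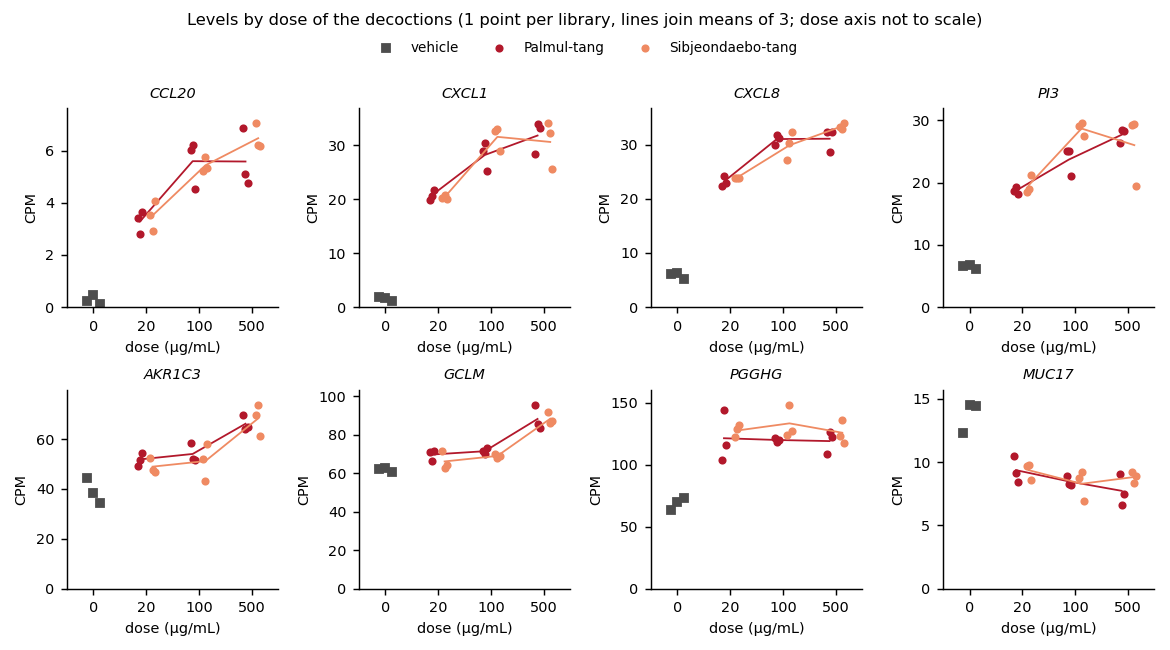
Level in CPM (y axis, from 0) of 8 genes in each library by dose of the decoctions (x axis, µg/mL, not to scale, vehicle at 0), with lines through the means of 3 libraries of each formula. CXCL1, CCL20, CXCL8 and PI3 are far above vehicle at 20 µg/mL already, AKR1C3 and GCLM climb mostly between 100 and 500 µg/mL, and PGGHG and MUC17 differ between vehicle and every dose but little among doses.

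Antioxidant and carbonyl-reducing genes of the NRF2 programme were also higher than vehicle, than the ethanol extracts at their lowest dose and than the decoctions at 20 µg/mL. Of 31 listed and tested members, 21 rose and 2 fell against vehicle (median log2 fold change 0.21), 21 were higher and 0 lower against the ethanol extracts (0.22), and 20 were higher and 0 lower at 500 than at 20 µg/mL (0.19). Over all tested genes the shares were 15.6% and 14.4% against vehicle, 5.61% and 4.79% against the ethanol extracts, and 0.547% each by dose. AKR1C3, an aldo-keto reductase on chromosome 10 at 5035354 to 5107686 (GRCh38), was at 61.4, 67.3 and 73.9 CPM (lowest, median, highest) with the decoctions at 500 µg/mL and 44.2, 38.4 and 34.4 CPM in vehicle. The log2 fold change was 0.78 ± 0.082 (adjusted p = 1.4e-09), and 0.41 between 500 and 20 µg/mL (adjusted p = 4.7e-05). Reads of AKR1C3 and its near-identical paralog AKR1C2 may be shared between them by the authors' counting. AKR1B10, a reductase of retinal and other aldehydes, was at 126.4, 132.2 and 147.1 CPM with the decoctions and 100.2, 92.4 and 92.0 CPM in vehicle, clear of vehicle in every library. It had log2 fold changes of 0.50 ± 0.049 against vehicle (adjusted p = 2.1e-11) and 0.42 between 500 and 20 µg/mL (adjusted p = 1.7e-11). ALDH3A1, an aldehyde dehydrogenase, was at 35.5, 37.3 and 38.3 CPM with the decoctions and 27.7, 29.2 and 29.8 CPM in vehicle, and its log2 fold change was 0.36 against vehicle and 0.46 by dose (adjusted p = 5.4e-08 and 6.6e-13). NQO1, the quinone reductase, and ME1, a source of NADPH, rose by 0.33 and 0.36 against vehicle (adjusted p = 3.7e-11 and 7.5e-12) and by 0.21 and 0.25 by dose. The 2 members that fell against vehicle were FTH1, the heavy chain of ferritin, and GPX2, an intestinal glutathione peroxidase, at -0.21 and -0.22 (adjusted p = 6.1e-06 and 0.012), named after their values were seen.

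GCLM, the modifier subunit of the enzyme that limits glutathione synthesis, is shown with its promoter because it moved in all 3 comparisons and held a match to the antioxidant motif TGACNNNGC (GCNNNGTCA on the other strand). The 250 bases before its start are chr1:93909431-93909680 on the minus strand of GRCh38.p14, from RefSeq and counted from its start, with the match in capitals.
GCLM: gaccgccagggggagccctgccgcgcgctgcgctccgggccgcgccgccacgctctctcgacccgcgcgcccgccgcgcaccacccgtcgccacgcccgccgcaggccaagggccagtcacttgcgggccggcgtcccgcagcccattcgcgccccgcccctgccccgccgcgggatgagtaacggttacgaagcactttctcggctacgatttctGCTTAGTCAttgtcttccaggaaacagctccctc
The match GCTTAGTCA, on the other strand, began 34 bases before the start. The motif was in 11.0% of the 27305 promoters and in 6 of the 21 NRF2 genes with a promoter in the table, and AKR1C3, AKR1C2 and NQO1 held none in this window. GCLM was at 83.4, 86.8 and 95.8 CPM with the decoctions at 500 µg/mL and 62.5, 62.9 and 60.7 CPM in vehicle, 0.51 ± 0.057 higher on the log2 scale (adjusted p = 1.4e-09). At 20 µg/mL it was at 62.9 to 71.7 CPM, a range that touched that of vehicle, and the log2 fold change between 500 and 20 µg/mL was 0.38 (adjusted p = 8e-08). The level of these genes was not highest in the decoctions. Over all doses of the ethanol extracts the highest libraries reached 260.7 CPM for AKR1B10, 105.6 CPM for AKR1C3 and 136.4 CPM for GCLM.

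Interferon-stimulated genes were counted against vehicle and by dose, and the difference between these comparisons was not tested. Of 35 tested members, 5 were higher and 3 lower than vehicle, a share not above the background of all genes (15.6% and 14.4%). By dose, 0 were higher and 7 lower at 500 than at 20 µg/mL (0.547% each over all genes), with a median log2 fold change of -0.23. IFI27 and IFIT1 fell by 0.40 and 0.39 on the log2 scale between the doses, OASL by 0.37, OAS1 by 0.29, IRF9 by 0.30 and RIGI by 0.23. Except for IFI27, these genes were named after their values were seen. IFITM3, a membrane protein that blocks virus entry, fell by 0.44 by dose and had a log2 fold change of -0.42 against vehicle (adjusted p = 0.0025), which lost its call with the mitochondrial share as a covariate (adjusted p = 0.33). IFI27 by dose was not called when the 12 libraries were fitted alone (adjusted p = 0.22). Against vehicle IFI27 had a log2 fold change of 0.51 (adjusted p = 0.0019), against -0.40 by dose (adjusted p = 0.012). Other genes lower both than vehicle and than at 20 µg/mL included SYTL2, a Rab27 effector in vesicle transport, at 37.3, 40.5 and 41.4 CPM with the decoctions at 500 µg/mL and 60.9, 60.1 and 55.1 CPM in vehicle. SYTL2 had log2 fold changes of -0.56 ± 0.044 against vehicle (adjusted p = 2.2e-14) and -0.26 by dose (adjusted p = 3e-06). SELENOW, a small selenoprotein, and BTG2, an antiproliferative factor, had -0.44 and -0.27 against vehicle and -0.31 and -0.24 by dose. BTG2 was not called against vehicle with the mitochondrial share as a covariate (-0.12, adjusted p = 0.27).

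A further set of genes stood higher than vehicle with log2 fold changes near 0 in the other comparisons, a contrast between comparisons that was not tested. PGGHG, a lysosomal hydrolase of collagen sugars on chromosome 11 at 289135 to 296107 (GRCh38), was at 108.3, 122.6 and 135.9 CPM with the decoctions and 63.7, 69.4 and 72.9 CPM in vehicle. It had a log2 fold change of 0.83 ± 0.08 against vehicle (adjusted p = 2e-10), -0.03 against the ethanol extracts at their lowest dose (adjusted p = 0.83) and -0.02 by dose (adjusted p = 0.95). WDR90, a protein of centriole microtubules, was at 62.6, 72.2 and 79.0 CPM with the decoctions and 42.3, 41.7 and 37.6 CPM in vehicle, with log2 fold changes of 0.82 ± 0.061 (adjusted p = 6.4e-15) and, against the ethanol extracts, 0.11 (adjusted p = 0.063). SDF2L1, a chaperone cofactor of the endoplasmic reticulum, and MAMDC4 had 0.82 and 0.84 against vehicle, 0.25 and -0.09 against the ethanol extracts and 0.13 and -0.01 by dose, and the value of SDF2L1 against the ethanol extracts passed the test (adjusted p = 0.0035). The readthrough loci RTEL1-TNFRSF6B and ATP6V1G2-DDX39B, both at 0.86, completed the 12 largest rises of at least 5 CPM. Both share reads with the genes they join, so their levels are uncertain. ATP6V1G2-DDX39B was not called with the mitochondrial share as a covariate (adjusted p = 0.079). In PGGHG, WDR90, SDF2L1, MAMDC4 and RTEL1-TNFRSF6B, all 54 treated libraries, whatever the extract or dose, were above the highest vehicle library. Over the whole table this was so for 455 genes (2.77%), and for 275 genes (1.67%) all 54 were below vehicle. CXCL1 was above the highest vehicle library in 34 of the 54, and CCL20 in 18. The part of set and of the vehicle libraries in these differences was not tested.

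Mitochondrially encoded genes had the lowest median of the 39 lists. Of 13 members, 0 rose and 11 fell against vehicle, beside 15.6% and 14.4% of all tested genes, with a median log2 fold change of -0.72. MT-CO2, a core subunit of cytochrome oxidase, was at 4715, 6035 and 6289 CPM (lowest, median, highest) with the decoctions and 8596, 10100 and 11360 CPM in vehicle. It fell by 0.79 ± 0.111 on the log2 scale (adjusted p = 6.1e-07). MT-ND4, a subunit of complex I, was at 5720, 6855 and 7217 CPM with the decoctions and 8922, 11370 and 13130 CPM in vehicle (-0.74 ± 0.134 on the log2 scale, adjusted p = 4e-05). MT-ND1 and MT-ND6 had -0.81 and -0.76 (adjusted p = 0.00089 and 0.03), and MT-ND6 was not called without vehicle replicate 3 (adjusted p = 0.15). By dose 0 members were called by edgeR or DESeq2, with 0 at an unadjusted p below 0.05 and a median of -0.04, and against the ethanol extracts 1 was lower, with a median of -0.17. With the mitochondrial share itself as a covariate, MT-CO2 and MT-ND4 were no longer called, at -0.22 and -0.02 (adjusted p = 0.073 and 0.94), and MT-ND1 and MT-ND6 changed sign. That share is made of the counts of these same genes, so the fit could not show whether they differed. Nuclear genes for oxidative phosphorylation went the other way against vehicle, with 19 of 38 higher and 4 lower (median 0.18). By dose 0 of them were called (edgeR and DESeq2, 0 at an unadjusted p below 0.05), and against the ethanol extracts 2 were higher and 0 lower. Over all tested genes 0.547% were called each way by dose, and 5.61% were higher and 4.79% lower than in the ethanol extracts.

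Many mucins and genes of the differentiated colon surface, though not most of either list, were called lower than vehicle. Of 25 tested mucin and goblet cell genes, 2 rose and 11 fell (median log2 fold change -0.33), and by dose 0 were higher and 1 was lower. Over all tested genes 15.6% rose and 14.4% fell, and by dose 0.547% were called each way. MUC17, a membrane mucin of the brush border on chromosome 7 at 101020072 to 101058745 (GRCh38), was at 6.63, 8.63 and 9.22 CPM with the decoctions and 12.3, 14.6 and 14.4 CPM in vehicle. Its log2 fold change was -0.74 ± 0.105 against vehicle (adjusted p = 2.2e-07), -0.19 against the ethanol extracts (adjusted p = 0.12) and -0.19 by dose (adjusted p = 0.42). MUC12, its neighbour on chromosome 7, was at 6.23, 7.04 and 7.55 CPM with the decoctions and 9.86, 10.9 and 14.1 CPM in vehicle (log2 fold change -0.74 ± 0.108, adjusted p = 2.9e-07). MUC2, the secreted gel-forming mucin, was at 14.8, 15.4 and 16.9 CPM with the decoctions, against 19.5, 23.5 and 26.2 CPM in vehicle (log2 fold change -0.56, adjusted p = 0.00023). With the mitochondrial share as a covariate MUC12 and MUC2 were not called (adjusted p = 0.092 and 0.73), and MUC17 was. The part of the mitochondrial share in these falls was not otherwise tested.

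Of 27 tested enterocyte genes, 1 rose and 11 fell against vehicle (median -0.13), and 2 were lower by dose. This and the lists that follow stand beside 15.6% higher and 14.4% lower over all tested genes, and 0.547% each way by dose. The intestinal transcription factor CDX2 and the adhesion protein CEACAM1 had log2 fold changes of -0.49 and -0.40. CEACAM7, an adhesion protein of the same family, rose by 1.84 (adjusted p = 2.4e-06) from a low vehicle level of 0.317 to 0.611 CPM. With the mitochondrial share as a covariate CEACAM1 was not called (-0.19, adjusted p = 0.064). Tight junction and adhesion genes had 5 of 31 higher and 13 lower, and Wnt targets and stem markers 1 of 20 higher and 8 lower. Among the 12 largest falls of at least 5 CPM was also CLDN9, a claudin, at 2.71, 3.07 and 3.78 CPM with the decoctions and 4.64, 5.96 and 5.34 CPM in vehicle (log2 fold change -0.77 ± 0.135, adjusted p = 1.2e-05). ETFRF1, a mitochondrial regulator of the electron transfer flavoprotein, was at 3.54, 5.11 and 5.59 CPM with the decoctions and 5.81, 9.22 and 12.2 CPM in vehicle (-0.94 ± 0.148, adjusted p = 2.4e-06). In both genes every decoction library was below every vehicle library, as the rule for the largest falls required. CD68, a lysosomal glycoprotein, had -0.79 (adjusted p = 2.6e-05), and was not called with the mitochondrial share as a covariate (adjusted p = 0.21). NPIPB13 and AGAP5, at -0.97 and -0.90, have near-identical copies, so their levels are uncertain. NPIPB13 lost its call without vehicle replicate 2 or vehicle replicate 3 (adjusted p = 0.065 and 0.079).

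**Figure D5:**
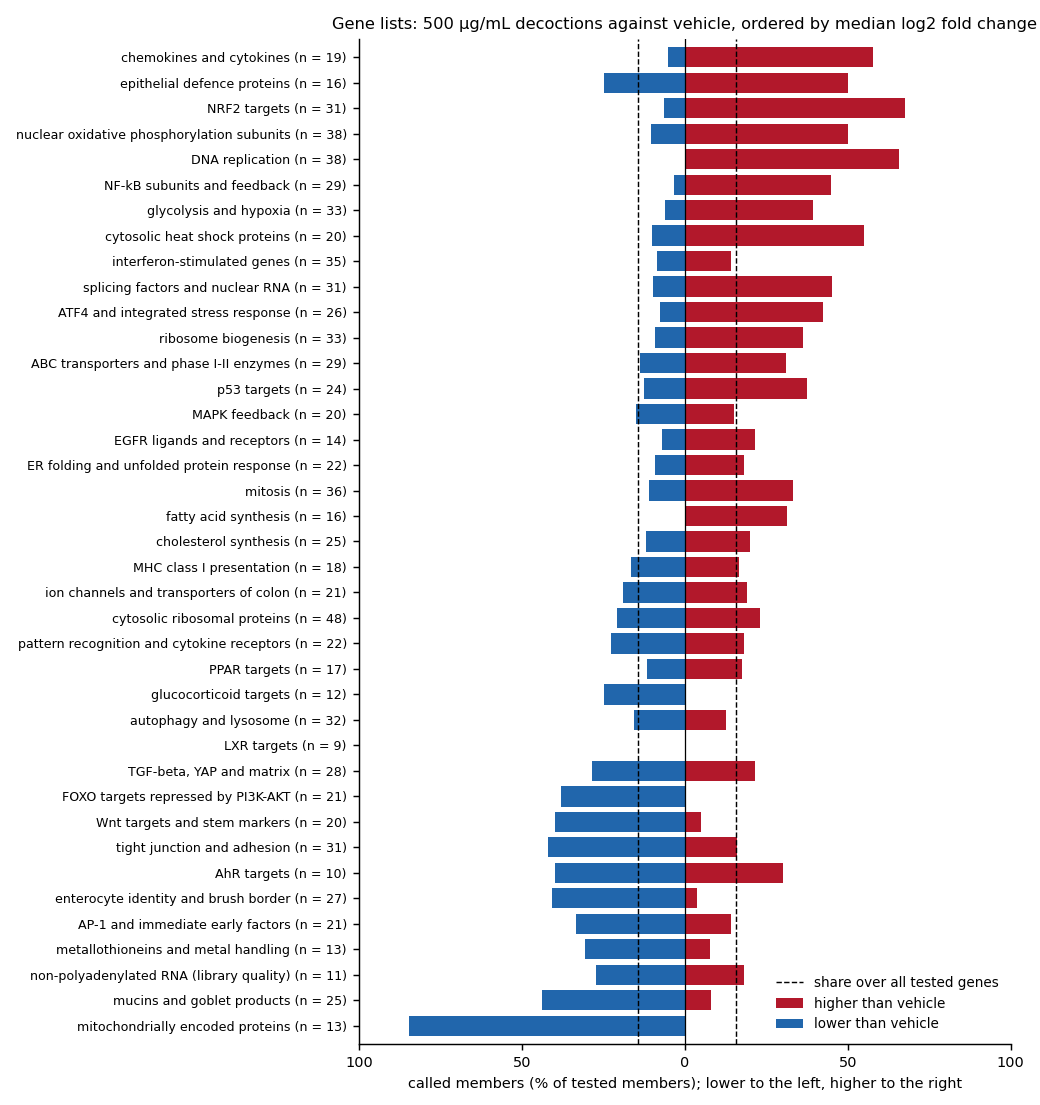
Share of tested members (x axis, %) of each of the 39 gene lists that rose (red, right) or fell (blue, left) in the decoctions at 500 µg/mL against vehicle, ordered by median log2 fold change, with dashed lines at the shares over all tested genes. Chemokines and cytokines stand at the top with 11 of 19 higher, and mitochondrially encoded proteins at the bottom with 11 of 13 lower. CXCL5 and IL17C, which passed the filter only through decoction libraries, are among those 11 higher.

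Growth and stress genes showed smaller shifts. Over all tested genes 15.6% were higher and 14.4% lower than vehicle, 5.61% were higher than in the ethanol extracts and 0.547% higher by dose. The lower members of the mitosis, ribosome biogenesis and p53 lists were below the share over all genes. In the DNA replication list, 25 of 38 genes were higher than vehicle and 0 lower (median log2 fold change 0.14), 13 were higher than in the ethanol extracts, and 2 were higher by dose. POLD1, the catalytic subunit of DNA polymerase delta, was between 93.1 and 103.1 CPM with the decoctions and at 77.0, 69.7 and 67.2 CPM in vehicle, and rose by 0.45 on the log2 scale (adjusted p = 5.2e-11). GINS4 of the replicative helicase, E2F1 and FEN1, the flap endonuclease, rose by 0.49, 0.35 and 0.34. Mitosis genes had 12 of 36 higher and 4 lower (0.04), ribosome biogenesis genes 12 of 33 higher and 3 lower (0.07), and cytosolic ribosomal proteins 11 of 48 higher and 10 lower. Glycolysis and hypoxia genes had 13 of 33 higher and 2 lower (0.11), targets of ATF4 11 of 26 higher and 2 lower (0.07), and cytosolic heat shock proteins 11 of 20 higher and 2 lower (0.10), with the small heat shock protein HSPB1 at -0.58 (adjusted p = 1.6e-08). FOXO targets that PI3K-AKT signalling represses had 0 of 21 higher and 8 lower (-0.06), and targets of p53 9 of 24 higher and 3 lower (0.06). The AhR target CYP1A1, a monooxygenase, had a log2 fold change of -0.86 (adjusted p = 0.045), which rested on vehicle replicate 1, at 5.08 CPM, while vehicle replicates 2 and 3 were at 0.611 and 0.846 CPM and the decoctions between 0.876 and 1.43 CPM. Without that library its log2 fold change was 0.74. RN7SL1 and RN7SL2, RNAs of the signal recognition particle with many copies and no poly(A) tail, had log2 fold changes of 2.48 and 2.68 (adjusted p = 0.024 and 0.028), neither of which was called without vehicle replicate 3 (adjusted p = 0.11 and 0.12). Their groups lay unevenly, with RN7SL2 at 39.9 to 75.96 CPM in replicates 1 and 2 of the decoctions but at 8.32 CPM in Palmul-tang replicate 3 and 12.1 CPM in Sibjeondaebo-tang replicate 3, against 8.49, 6.21 and 3.28 CPM in vehicle.

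The formulas themselves were compared at the same dose and time, Sibjeondaebo-tang against Palmul-tang at 500 µg/mL, 3 libraries each. Of 16445 tested genes edgeR called 0 (0.00%), with 885 at an unadjusted p below 0.05, and DESeq2 called 3. The log2 difference of Sibjeondaebo-tang minus Palmul-tang was -0.06 for CXCL1 (95% interval -0.24 to 0.12), 0.11 for CXCL8 (-0.03 to 0.24) and 0.23 for CCL20 (-0.16 to 0.61). It was -0.10 for PI3 (-0.33 to 0.13) and 0.05 for AKR1C3 (-0.13 to 0.22). The intervals leave room for differences of up to 0.61 in CCL20 and 0.24 in CXCL8, so the p-values do not show that the formulas act alike. Set against vehicle one formula at a time, Sibjeondaebo-tang had 4427 genes called (26.9%), 14.0% higher and 12.9% lower, and Palmul-tang 3498 (21.3%), 11.5% higher and 9.78% lower. The difference between those counts was not tested. Against vehicle CXCL1 had a log2 fold change of 4.23 with Sibjeondaebo-tang and 4.29 with Palmul-tang, and CCL20 of 4.56 and 4.33, in comparisons that share the vehicle libraries.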

How the data were processed

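The authors deposited RSEM expected counts for each gene. The submitters' processing notes name FastQC 0.11.9, Trim Galore 0.6.5, STAR 2.7.3a, RSEM 1.3.3 and hg38. The annotation release was not given in the sources used here. Such estimates share out reads that fit several near-identical genes. RNA (RIN above 7) went into directional mRNA libraries sequenced on an MGI instrument with 100 bp paired ends, per the labels' protocols. Fractional values, 7.70% to 9.78% of a library, were rounded to whole counts. The 213 columns of other samples in the table were not used here. Of 60675 identifiers, 41209 had a symbol in the name table and 57055 were in GENCODE release 29, which gave coordinates on GRCh38 and the symbols the name table lacked.

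The 19 groups of 3 libraries (57 libraries, without the single Angelica libraries) entered 1 model in edgeR 4.0.16 (R 4.3.3): TMM factors of 0.956 to 1.031, filterByExpr (16445 genes kept), the quasi-likelihood F test (38 residual degrees of freedom), and Benjamini-Hochberg adjustment over all tested genes. Calls, and the words rose and fell, mean an adjusted p below 0.05. The contrast took the mean of the formulas at 500 µg/mL minus vehicle. CPM are counts per M of the tested total times the TMM factor. Intervals and floors cover counting error only where they come from counts.

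Named genes were the 12 largest rises and falls among called protein-coding genes of at least 5 CPM without overlap of the groups, up to 8 each way that were also called by dose, up to 4 called members per list, and any tested chemokine, defence or NF-kB gene. Clone-style names were not counted as symbols, a choice made after values were seen. The members and the 39 lists (with 5 marker lists, 1083 entries, 1078 matched) were chosen with earlier results of these data known. Replicate pairs had r of 0.9965 to 0.9977, with a chi-square over its degrees of freedom of 2.69 to 12.7, above sampling noise, so none was counted as a repeat. Alternatives were RLE factors, no filter, DESeq2 1.42.0, the libraries of a comparison alone, a replicate block and the mitochondrial share as a covariate. Others were a minimum fold of 1.2, GC and length correction (added after seeing the data) and leaving out each decoction or vehicle library of a comparison. The fits were tested on simulated data.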

Additional observations from a re-analysis of the deposited data

Results flagged for a closer look

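Among 39 sets of the 6 decoction libraries at 500 µg/mL, a library stood far below the others in 2 genes. That count is about what chance gives, near 1 in 20 sets. For CXCL8, Palmul-tang replicate 2 was at 28.6 CPM and the other 5 decoction libraries were between 32.3 and 33.96 CPM. For PI3, Sibjeondaebo-tang replicate 3 was at 19.4 CPM, below the other 5 at 26.4 to 29.5 CPM. Both low values were above every vehicle library, and neither gene lost its call without that library.

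The Angelica ethanol extract at its highest dose, 320 µg/mL, was outside the comparisons because it has 1 library, and its CPM carry no TMM factor and no test. It was above the vehicle range for the NRF2 genes, with AKR1B10 at 176.6 CPM (vehicle 92.0 to 100.2), AKR1C3 at 57.6 CPM (34.4 to 44.2), AKR1C2 at 19.4 CPM (11.2 to 13.5), ALDH3A1 at 40.7 CPM (27.7 to 29.8) and GCLM at 91.8 CPM (60.7 to 62.9). CXCL8, at 6.371 CPM, was barely above its vehicle range of 5.18 to 6.365 CPM.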

How the results depend on the processing

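Against vehicle, the count of called genes was between 3856 and 5258 under 7 of 9 alternatives, in place of 4938. It was 1949 with the mitochondrial share as a covariate, 295 (182 higher, 113 lower) against a minimum fold of 1.2, and 3121 to 4823 as each library was left out in turn, the lowest without vehicle replicate 3. The 180 calls between 500 and 20 µg/mL became 289 with no filter, 288 with the replicate block, 280 with GC and length trends removed, 4 at the minimum fold and 112 to 183 with a library left out, the lowest without Sibjeondaebo-tang replicate 2 at 20 µg/mL. Between 100 and 20 µg/mL the 7 calls became 91 with no filter, 12 with DESeq2, 11 with GC and length trends removed, 0 at the minimum fold and 2 to 9 with a library left out. Against the ethanol extracts the 1710 calls became 1048 with the mitochondrial covariate and 1112 with these libraries alone. At the minimum fold they became 42 (39 higher, 3 lower, 92.9% higher in place of 54%). With 1 of the 6 decoction libraries left out they became 964 to 1586, the lowest without Palmul-tang replicate 1. The ethanol extract libraries were not left out in turn. Between the formulas the 0 calls became 148 with no filter, 3 with DESeq2, 3 with the 6 libraries alone and 0 with any library left out. The cause was not tested. Deviations of same-numbered libraries correlated at -0.046 to 0.135 among the groups of the main comparison, above 0.1 in 1 of 9 pairs, and at -0.122 to 0.273 over all decoction and vehicle groups. Only Sibjeondaebo-tang at 500 and Palmul-tang at 20 µg/mL had all 3 pairs above 0.1 (0.118 to 0.139), so the numbers were not taken to pair the libraries, though some sharing by number in set 8 was not tested further. The replicate block gave 5258, 288, 9, 2091 and 0 calls in the 5 comparisons in the order above.

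MT-ND1 and MT-ND6 reversed to 0.22 and 0.22 with the mitochondrial covariate, and CYP1A1 to 0.74 without vehicle replicate 1 (-1.30 to 0.74 over libraries left out). For MT-ND1 and MT-ND6 the covariate is made in part of their own counts, so that fit could not test them. The difference in mitochondrial share was -3.92 to -2.56 percentage points with a library left out, and without any 1 vehicle library its exact permutation p was 0.0714, the smallest then possible. The difference in total counts was 2.55 to 4.23 M.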
